A study of Rattus norvegicus with 4 samples.

Results

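Cycling cells of the rat abdominal midline fascia were chosen by 2 measured values, as cells with at least 1 UMI (unique molecular identifier, a counted transcript molecule) of Mki67 and at least 1 of Top2a, among cells with at least 300 detected genes and at most 20% of UMIs from mitochondrial genes. This left 193 cycling cells of 34904 kept cells, out of 38282 deposited cells. Each was placed in a class by marker counts: macrophage with at least 20 UMIs of C1qa, C1qb and C1qc per 10000, stromal with at least 30 UMIs of Col1a1, Col1a2 and Dcn per 10000, T with at least 2 UMIs of Cd3d, Cd3e and Cd3g, and other for the rest. Of the cycling cells, 95 (49.2%) were of class other, 74 (38.3%) were T cells, 13 (6.74%) were stromal and 11 (5.70%) were macrophages.

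The rats all had Salmonella-induced dysentery. The acupuncture group was then treated with acupuncture and the dysentery group was not, and subcutaneous fascia of the abdominal midline, the acupoint, was sequenced as single cells in 2 libraries per group. Collagenase and elastase freed the cells, and dead cells and red cells were removed before 10x 3′ libraries were made. The titles, on which every direction here rests, go against the treatment field of each library, which names the opposite group. The description of each library and the design text name the same group as its title. Were the field correct rather than the titles, every sign would change. Whether each library is a separate animal is not stated, so a p-value covers the spread among these 4 libraries, which may be technical. Strain, sex and age were not given in the labels used here.

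A dividing cell first licenses its replication origins with the MCM complex and makes deoxynucleotides, then copies its DNA in S phase, and in G2 and mitosis builds a spindle, condenses its chromosomes and divides. Cyclin-dependent kinases (Cdks) drive these steps, and Cdk inhibitors hold cells in G1 or at rest. Mki67 encodes Ki-67, a protein of the surface of mitotic chromosomes that resting cells lose, and Top2a encodes the topoisomerase that untangles sister chromatids; both transcripts peak in G2 and mitosis. In connective tissue, local division of macrophages, fibroblasts and lymphocytes adds to cells that enter with the blood.

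The S phase list and the G2/M list were set lists of genes, not groups found in these cells, and their promoters carry different short motifs. The CHR (cell cycle genes homology region) recruits the MuvB complexes DREAM and MMB-FOXM1 in human and mouse cells, and E2F sites recruit the E2F factors that act at the start of S phase. In the RefSeq promoters of build GRCr8, windows of 250 bases before to 50 after the gene start, the CHR letters TTTGAA or TTCGAA stood on either strand in 35 of 48 promoters of the G2/M list (72.9%), in 7 of 31 of the S list (22.6%) and in 6608 of all 33469 (19.7%). The E2F letters TTTGGCGC, TTTCCCGC or TTTCGCGC stood in 1 promoter of the G2/M list (2.08%), in 15 of the S list (48.4%) and in 577 of all (1.72%). CCAAT stood in 36 promoters of the G2/M list (75.0%), in 19 of the S list (61.3%) and in 12549 of all (37.5%). Entries matched 48 of 52 G2/M genes and 31 of 42 S genes. A match describes letters in a window and shows no binding. To show this contrast, 3 promoters of G2/M genes follow with the CHR in capitals, and 2 of licensing genes with E2F letters in capitals, from 250 bases before to 30 after the start. They are Top2a (chr10:84473064-84473343, minus strand), Plk1 (chr1:186147408-186147687, plus strand), Nusap1 (chr3:127057045-127057324, plus strand), Mcm5 (chr19:13488563-13488842, plus strand) and Mcm6 (chr13:42404323-42404602, minus strand).
Top2a: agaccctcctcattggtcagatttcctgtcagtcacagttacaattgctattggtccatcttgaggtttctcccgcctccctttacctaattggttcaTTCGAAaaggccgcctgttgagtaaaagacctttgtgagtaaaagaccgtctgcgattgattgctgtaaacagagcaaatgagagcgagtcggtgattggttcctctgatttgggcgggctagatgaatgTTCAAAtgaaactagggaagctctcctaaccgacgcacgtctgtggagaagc
Plk1: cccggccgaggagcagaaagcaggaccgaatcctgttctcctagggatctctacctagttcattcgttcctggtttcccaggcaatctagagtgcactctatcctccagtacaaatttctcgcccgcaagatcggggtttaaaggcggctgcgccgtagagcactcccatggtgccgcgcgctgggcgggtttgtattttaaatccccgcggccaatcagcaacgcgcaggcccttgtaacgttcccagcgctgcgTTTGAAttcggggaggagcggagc
Nusap1: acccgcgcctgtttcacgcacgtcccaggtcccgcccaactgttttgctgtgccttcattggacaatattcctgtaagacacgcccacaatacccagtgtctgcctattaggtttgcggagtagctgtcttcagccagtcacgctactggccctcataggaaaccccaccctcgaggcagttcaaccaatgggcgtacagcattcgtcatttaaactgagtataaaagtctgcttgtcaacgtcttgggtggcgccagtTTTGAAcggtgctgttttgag
Mcm5: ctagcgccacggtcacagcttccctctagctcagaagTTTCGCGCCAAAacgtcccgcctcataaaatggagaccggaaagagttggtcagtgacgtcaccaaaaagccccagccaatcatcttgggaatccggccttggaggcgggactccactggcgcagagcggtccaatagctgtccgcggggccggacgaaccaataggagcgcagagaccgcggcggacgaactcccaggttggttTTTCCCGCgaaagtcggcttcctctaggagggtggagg
Mcm6: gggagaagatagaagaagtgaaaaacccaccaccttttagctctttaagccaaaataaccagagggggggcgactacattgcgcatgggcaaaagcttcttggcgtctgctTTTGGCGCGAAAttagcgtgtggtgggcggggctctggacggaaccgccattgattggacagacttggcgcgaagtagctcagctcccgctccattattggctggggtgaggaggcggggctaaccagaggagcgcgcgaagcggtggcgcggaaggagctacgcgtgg
Top2a holds 2 CHR matches, 152 and 22 bases before the start, and in Plk1 and Nusap1 the match lies just after the start. In Mcm5 and Mcm6 the longer capital runs are overlapping E2F matches on the 2 strands.

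The counts of both marker genes were well above the limit in most cycling cells. Median Mki67 was 12.5 and 12 UMIs per cycling cell in acupuncture libraries 1 and 2 and 13 and 8 in dysentery libraries 1 and 2, and median Top2a was 10 and 7 against 9 and 6.5. These values chose the cells and are given as a description. At the limit, 5 cells had exactly 1 UMI of each gene. Cells with at least 2 UMIs of each numbered 37 of 46 and 43 of 52 in acupuncture and 44 of 55 and 33 of 40 in dysentery. The remaining cycling cells had 1 UMI of 1 gene and more of the other, and were not read apart. Just outside the limit, 448 cells had Mki67 only and 73 had Top2a only. The other genes of the G2/M list, which did not choose the cells but were read in the same cells, took 0.798% and 0.799% of UMIs in acupuncture and 0.726% and 0.744% in dysentery cells with at least 2 UMIs of each marker. In cells with only 1 of the markers they took 0.130% and 0.115% against 0.147% and 0.131%, and in cells with neither 0.0780% and 0.0788% against 0.0802% and 0.0745%. Of the 5 cells at the limit, the 2 in acupuncture library 2 stood at 0.160% and the 2 in dysentery library 2 at 0.192%, and the 1 in dysentery library 1, of 1096 UMIs, at 1.55%. Cells with at least 2 UMIs of each marker thus stood far apart in every library, whereas cells with a single marker, and 4 of the 5 at the limit, were nearer the cells with none.

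Depth differed with the state of the cell. Cycling cells held a median of 24552.5 and 19868.5 UMIs in the acupuncture libraries and 18871 and 16543.5 in the dysentery libraries, against 7609 and 9346, and 6738.5 and 7063, in non-cycling cells. Whole libraries held 53066666 to 93897006 UMIs, and the share of deposited cells over the mitochondrial limit was 6.999% and 7.17% in acupuncture and 16.0% and 5.11% in dysentery, so dysentery library 1 stood apart. Among high Scrublet scores, which mark barcodes that look like 2 cells together, were 22 of 46 and 26 of 52 cycling cells in acupuncture (47.8% and 50.0%) and 13 of 55 and 1 of 40 in dysentery (23.6% and 2.50%). Non-cycling cells with UMIs at or above the lower quartile of their library's cycling cells scored high at 37.4% and 18.4% against 17.3% and 39.1%. This limit sets a minimum depth and does not match depth. The libraries of a pair shared 19 to 32 barcodes, none of them cycling in both. In neutrophil-rich barcodes, a cell type that no longer divides, both markers were met in 1 of 824 cells (0.121%), at median depths of 2700.5 to 3939.5 UMIs per library.

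The share of cycling cells did not separate the groups. It was 0.558% (46 of 8248, 95% Clopper-Pearson interval 0.409 to 0.743) and 0.562% (52 of 9252, 0.420 to 0.736) after acupuncture, and 0.825% (55 of 6665, 0.622 to 1.07) and 0.372% (40 of 10739, 0.266 to 0.507) in dysentery. Intervals cover counting error only. The acupuncture libraries lay between the dysentery libraries, with means of 0.560% ± 0.00306 against 0.599% ± 0.320 (SD, n = 2 each; exact permutation test, two-sided, p = 1; the smallest p that 2 against 2 libraries allow is 0.333). When each cell was thinned to 2000 UMIs, with 655 to 768 shallower cells left out per library, the shares were 0.201% and 0.186% against 0.334% and 0.150%. Without dysentery library 1 the difference turned to 0.187 percentage points in favour of acupuncture, against -0.0390 with all libraries.

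The classes took different shares of the cycling cells in the 2 groups, though no difference could pass the test at this size. T cells made up 28.3% and 19.2% of cycling cells after acupuncture (13 of 46 and 10 of 52), and 50.9% and 57.5% in dysentery (28 of 55 and 23 of 40). Class other made up 58.7% and 63.5% after acupuncture (27 and 33 cells) and 36.4% and 37.5% in dysentery (20 and 15 cells). Stromal cells were 4 and 5 against 3 and 1, and macrophages 2 and 4 against 4 and 1. The groups did not overlap for T cells (difference -30.5 percentage points), class other (24.1) or stromal cells (5.18), each at the smallest p of the exact two-sided permutation test (0.333; adjusted over the 4 classes 0.444), so none passed 0.05. With high Scrublet scores removed the differences of T and other cells were -16.8 and 17.2 percentage points.

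**Figure D1:**
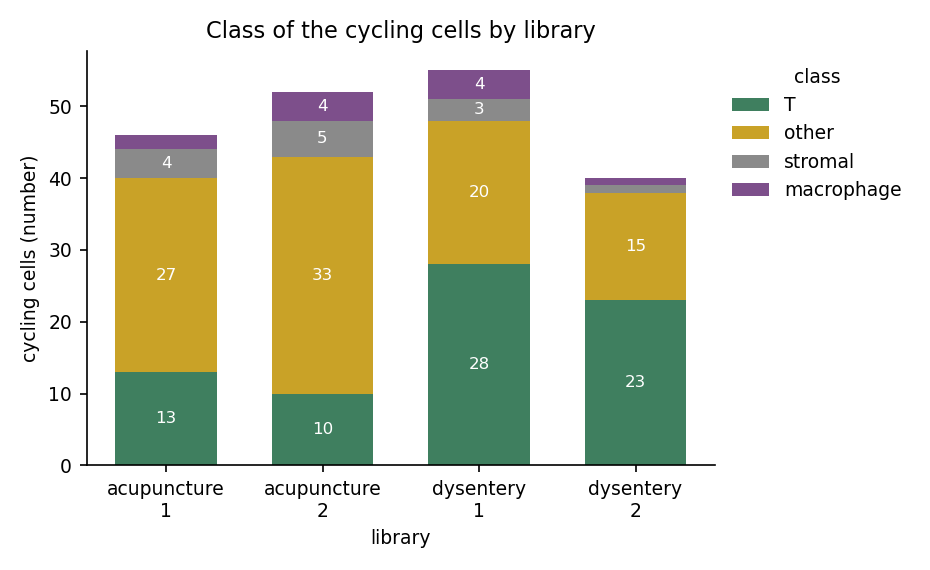
Number of cycling cells (y axis) in each library (x axis), stacked by class; numbers stand in segments of at least 3 cells. Class other is the larger class after acupuncture (27 and 33 cells) and T cells in dysentery (28 and 23 cells).

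Cycling cells were most frequent among T cells, as classed here. The T rule counts UMIs without regard to depth, so deeper cells meet it more easily. Cycling T cells held medians of 26924 and 16176 UMIs after acupuncture and 23495 and 17993 in dysentery. Non-cycling T cells held 5326 and 5746.5, and 5297 and 4891.5. The part of depth in this order of classes was not tested. Over all libraries 74 of 1739 T cells (4.26%) were cycling, against 95 of 8348 other cells (1.14%), 11 of 6754 macrophages (0.163%) and 13 of 18063 stromal cells (0.0720%). Within T cells, 3.52% cycled in acupuncture library 1 (13 of 369, interval 1.89 to 5.95) and 2.36% in library 2 (10 of 424, 1.14 to 4.29), against 4.96% in dysentery library 1 (28 of 565, 3.32 to 7.08) and 6.04% in library 2 (23 of 381, 3.86 to 8.92). Both acupuncture libraries were lower than both dysentery libraries, at 2.94% ± 0.823 against 5.50% ± 0.764 (SD, n = 2 each), a difference of -2.56 percentage points with p = 0.333 by the exact two-sided permutation test (0.667 adjusted over the 4 classes), which cannot pass 0.05 at this size. Thinned to 2000 UMIs, 1.12% and 0.723% of T cells cycled after acupuncture and 1.82% and 2.45% in dysentery. Thinned cells of every class kept the class they had at full depth. Without high Scrublet scores the values were 3.31% and 2.18% against 4.72% and 5.95%.

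Class other went the other way. Here 1.72% (27 of 1571, interval 1.14 to 2.49) and 1.503% (33 of 2195, 1.04 to 2.10) of cells cycled after acupuncture, against 0.847% (20 of 2362, 0.518 to 1.30) and 0.676% (15 of 2220, 0.379 to 1.11) in dysentery. Both acupuncture libraries were higher, at 1.61% ± 0.152 against 0.761% ± 0.121 (SD, n = 2 each), a difference of 0.850 percentage points (exact two-sided permutation p = 0.333; adjusted 0.667). Thinned to 2000 UMIs the groups still did not overlap (0.583% and 0.495% against 0.466% and 0.286%). With high Scrublet scores removed they did overlap: 0.795% (12 of 1510) and 0.675% (14 of 2074) after acupuncture, against 0.569% (13 of 2284) and 0.686% (15 of 2187) in dysentery. Of the cycling other cells, 15 of 27 and 19 of 33 scored high after acupuncture and 7 of 20 and 0 of 15 in dysentery. The part of doublets in this difference was not tested further.

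**Figure D2:**
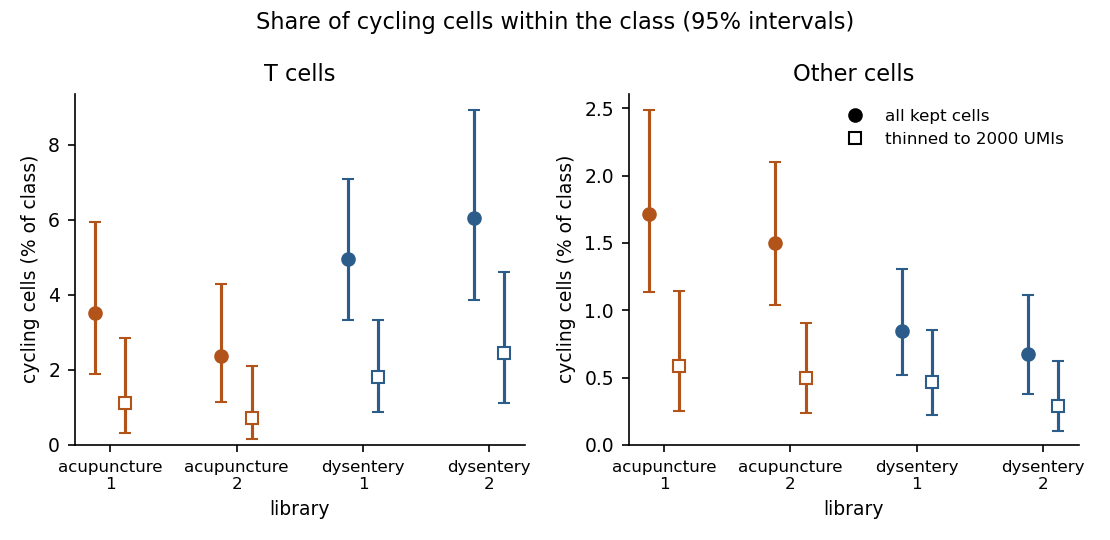
Cycling cells as a percentage of T cells (left) and of other cells (right) by library, with 95% Clopper-Pearson intervals; filled circles are all kept cells and open squares cells thinned to 2000 UMIs. T cells cycled at 3.52% and 2.36% after acupuncture and at 4.96% and 6.04% in dysentery, and other cells at 1.72% and 1.503% against 0.847% and 0.676%.

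Few macrophages and stromal cells were cycling. Of macrophages, 2 of 2166 and 4 of 2735 cycled after acupuncture (0.0923% and 0.146%), against 4 of 661 and 1 of 1192 in dysentery (0.605% and 0.0839%), with overlapping groups (exact two-sided permutation p = 1). On cells thinned to 2000 UMIs the direction turned, with 1 of 2077 and 2 of 2703 macrophages after acupuncture (0.0481% and 0.0740%) and 0 of 615 and 0 of 1120 in dysentery. Counts of 0 allow up to 0.488% and 0.268% of thinned cells (3 counts), which is no bound on the share among cells at full depth. Of stromal cells, 4 of 4142 and 5 of 3898 cycled after acupuncture (0.0966% and 0.128%), against 3 of 3077 and 1 of 6946 in dysentery (0.0975% and 0.0144%; p = 0.667, exact permutation). A part of these cells scored as doublets: 2 of 2 and 4 of 4 cycling macrophages after acupuncture, against 2 of 4 and 0 of 1 in dysentery. Among cycling stromal cells, 4 of 4 and 2 of 5 scored high after acupuncture, against 2 of 3 and 0 of 1 in dysentery, and Ptprc, the CD45 antigen of blood cells, was present in 4 of 4 and 0 of 5 against 2 of 3 and 0 of 1. With high scores removed 0 and 0 cycling macrophages were left after acupuncture, against 2 and 1 in dysentery, and 0 and 3 stromal cells against 1 and 1; the counts of 0 allow shares of up to 0.159% and 0.127% of macrophages and 0.0762% of stromal cells. These counts are too small for any comparison of transcripts.

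Most cycling T cells carried genes of cytotoxic T cells. Cd8a, the co-receptor of cytotoxic T cells, had at least 2 UMIs in 11 of 13 and 6 of 10 cycling T cells after acupuncture and in 27 of 28 and 17 of 23 in dysentery. Nkg7, a protein of cytotoxic granules, had at least 2 UMIs in 13 and 4 cells against 28 and 19. Il17a, the cytokine of type 17 T cells, reached 2 UMIs in 4 cells of acupuncture library 2 and in none of the other 3 libraries. As a description, Cd8a stood at 1263 and 864 CPM (counts per 1000000 UMIs summed over the cells) after acupuncture and 1494 and 909 in dysentery in cycling cells, with 462 and 293, and 693 and 694, in non-cycling cells. It was higher in cycling cells in 4 of 4 libraries (log2 ratio 1.11 ± 0.52, SD, n = 4; 10 CPM added to both here and below), as was Nkg7 (1.06 ± 0.44). Il7r, the interleukin-7 receptor of resting T cells, was lower in 4 of 4 (-1.85 ± 0.75), as were Ccr2 (-1.97 ± 0.83), a chemokine receptor, and Btg1 (-1.86 ± 0.60), an antiproliferative factor.

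Class other was a mixture whose parts differed between the groups. Splitting it by genes chosen after their values were seen, cells with at least 2 UMIs over Csf1r, Ccr2, Cd68 and Flt3, receptors and a lysosomal protein of mononuclear phagocytes and dendritic cells, but not over the natural killer (NK) list Nkg7, Klrb1a, Klrd1, Ncr1, Gzma and Prf1, made up 22 of 27 and 28 of 33 cycling other cells after acupuncture, against 6 of 20 and 9 of 15 in dysentery. Cells with the NK list only were 2 and 1 against 12 and 6. Cells with both were 2 and 2 against 1 and 0, and cells with neither 1 and 2 against 1 and 0. Most cycling other cells in the acupuncture libraries thus carried phagocyte genes; in dysentery library 1 most carried NK genes, and in dysentery library 2 both kinds were common. High Scrublet scores fell on 14 of 22 and 19 of 28 phagocyte-gene cells after acupuncture, against 2 of 6 and 0 of 9 in dysentery, and on 0 of 2 and 0 of 1 NK-gene cells against 4 of 12 and 0 of 6.

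The counts of single genes follow as a description, since several of them made the split. Ccr2 had at least 2 UMIs in 21 and 27 cycling other cells after acupuncture and 7 and 8 in dysentery, and Csf1r, the receptor for macrophage colony-stimulating factor, in 17 and 14 against 1 and 3. Flt3, the receptor of dendritic progenitors, was present in 6 and 16 against 4 and 3. Nkg7 was present in 3 and 2 against 13 and 6, and Cd8a in 4 and 3 against 8 and 6. Ptprc was present in 26 of 27 and 31 of 33 against 18 of 20 and 15 of 15, so nearly all of these cells carried this antigen of blood cells. With cells thinned to 4000 UMIs, the NK list reached 2 UMIs in 8.59% ± 3.57 of cycling other cells after acupuncture and 52.5% ± 17.7 in dysentery (SD, n = 2 each), and the stromal list in 29.6% and 39.4% against 70% and 60%; the groups did not overlap (exact two-sided permutation p = 0.333 each, the smallest possible). B cell, vascular endothelial, erythroid, muscle and adipocyte lists reached it in 0% of thinned cycling other cells in all libraries.

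The transcripts that set cycling cells apart are a description, since the clearest of them travel with the marker genes that chose the cells. Among T cells, 8850 genes had at least 50 UMIs; 2310 (26.1%) were higher in cycling than non-cycling cells in 4 of 4 libraries and 1678 (19.0%) lower. Among other cells, 1868 of 12931 (14.4%) were higher and 2855 (22.1%) lower. The medians of all genes were 0.02 in T cells and -0.06 in other cells on the log2 scale. Depth differed between the states as given above, and its part in these shares was not tested.

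Licensing and S phase genes came first in the cell cycle and were higher throughout. In T cells 16 of 16 measured licensing genes and 34 of 36 S genes were higher in 4 of 4 libraries (median log2 ratio 1.75 and 1.78), and in other cells 16 of 16 and 35 of 40 (1.57 and 1.60). Mcm5, a subunit of the replicative helicase whose promoter is shown above, stood in cycling T cells at 119 and 52.2 CPM after acupuncture and 126 and 91.9 in dysentery, against 15.4 and 10.4, and 21.6 and 12.1, in non-cycling T cells (2.06 ± 0.32). Its partner Mcm6 had the same mean ratio (2.06 ± 0.21). Rrm2, the ribonucleotide reductase subunit that limits deoxynucleotide supply, stood in cycling T cells at 379 and 313 CPM after acupuncture and 434 and 563 in dysentery, against 9.08 and 2.32, and 19.2 and 20.1, in non-cycling cells (4.31 ± 0.32), and in other cells its ratio was 4.07 ± 0.37. The nucleotide synthesis list was higher for 12 of 16 genes in T cells and 11 of 16 in other cells (median 1.15 and 0.98). Pcna, the sliding clamp of DNA polymerase, was also abundant in non-cycling cells and had a smaller ratio (1.00 ± 0.48 in T cells and 1.19 ± 0.33 in other cells).

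Genes of G2 and mitosis had the larger ratios. The G2/M list was higher in 4 of 4 libraries for 41 of 42 measured genes in T cells (median 2.90) and 42 of 42 in other cells (2.83), and the spindle, kinetochore and cytokinesis list for 27 of 27 in both (3.33 and 3.51). Ube2c, the ubiquitin-conjugating enzyme of the anaphase-promoting complex, led both classes, at 792 and 1201 CPM in cycling T cells after acupuncture and 649 and 573 in dysentery, against 6.81 and 3.09, and 6.90 and 6.995, in non-cycling T cells (5.62 ± 0.64). In other cells it stood at 719 and 302 CPM after acupuncture and 699 and 939 in dysentery, against 1.29 and 1.77, and 1.47 and 0.402, in non-cycling cells (5.80 ± 0.76). Cdk1, the kinase of mitotic entry, had ratios of 4.21 ± 0.69 in T cells and 4.44 ± 0.33 in other cells. Its partner cyclin B, Ccnb1, had 3.49 ± 0.48 and 3.70 ± 0.78, and Birc5, the survivin subunit of the chromosomal passenger complex, 4.06 ± 0.64 and 4.30 ± 0.36.

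Plk1 and Nusap1, whose promoters carry the CHR letters shown above, were close to 0 in non-cycling cells. Plk1, the polo-like kinase of mitosis, was at 133 and 128 CPM in cycling T cells after acupuncture and 130.1 and 65.9 in dysentery, against 0.908 and 0.386, and 0.300 and 1.40, in non-cycling T cells (3.49 ± 0.50). Nusap1, a spindle microtubule protein, was at 127 and 186 CPM after acupuncture and 145 and 146 in dysentery, against 1.36 and 0.386, and 1.20 and 0.466 (3.88 ± 0.27). Stmn1, which destabilises microtubules, stood out in class other, at 1677 and 1838 CPM in cycling cells after acupuncture and 2408 and 1775 in dysentery, against 57.4 and 51.6, and 44.5 and 24.3, in non-cycling cells (5.18 ± 0.49). In every one of these values the cycling cells lay above the non-cycling cells of their own library. The condensin and chromatin list was higher for 16 of 17 genes in T cells and 17 of 17 in other cells (median 2.36 and 2.43).

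**Figure D3:**
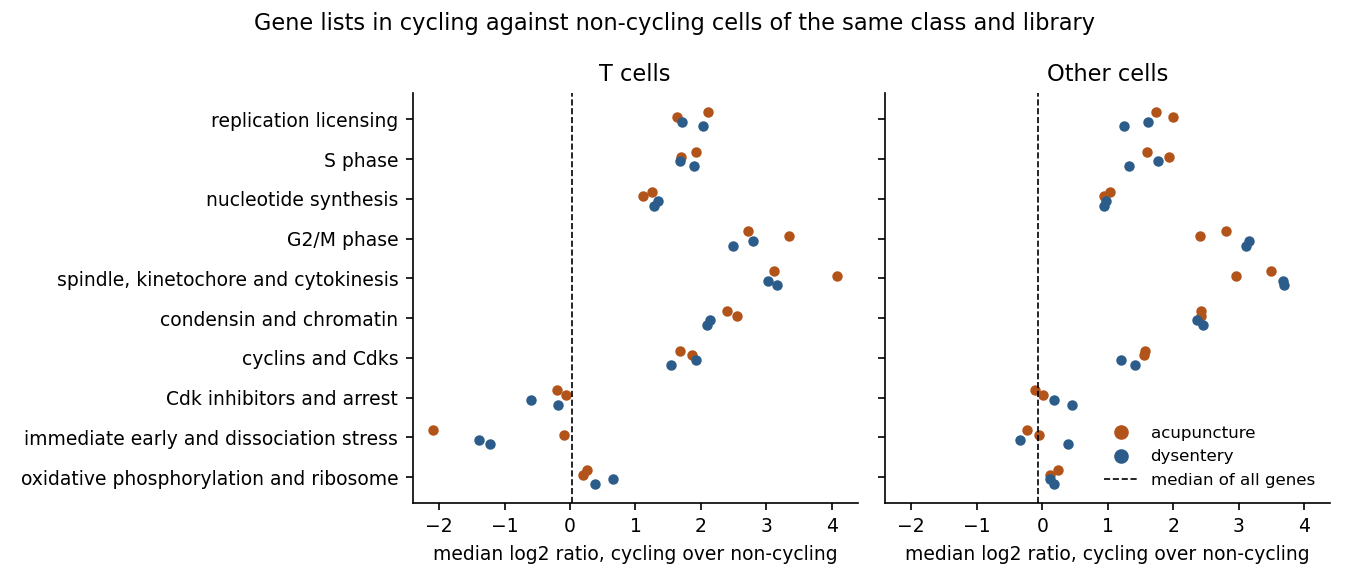
Median log2 ratio of cycling over non-cycling cells (x axis, 10 CPM added) for 10 gene lists (y axis) in T cells (left) and other cells (right); each point is a library and the dashed line is the median of all genes. The spindle list lies farthest right in both classes (3.33 and 3.51 over libraries), and the immediate early list in T cells lies left of the line in every library (-2.09 and -0.09 after acupuncture, -1.39 and -1.23 in dysentery).

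Cyclins, Cdk inhibitors and stress genes did not move as a block. Of the measured cyclins and Cdks, 13 of 16 were higher and 2 lower in cycling T cells (median 1.61), and 14 of 17 higher and 1 lower in other cells (1.54). Ccnd3, a D-type cyclin of G1, was higher in T cells (0.70 ± 0.30), whereas its relative Ccnd2 was lower (-0.97 ± 0.65). Cdk inhibitors and arrest genes were higher for 5 and lower for 6 of 17 in T cells (median -0.23), and higher for 6 and lower for 5 of 18 in other cells (0.03). Cdkn2c, the inhibitor p18 of Cdk4 and Cdk6, was higher in both classes (1.97 ± 0.70 and 2.60 ± 0.25), Cdkn1b (p27) was lower in T cells (-0.96 ± 0.30), and Cdkn1a (p21), the p53 target, was higher in other cells (1.12 ± 0.59). Transcription factors of the cycle were higher for 6 of 7 measured genes in T cells and 6 of 8 in other cells (median 1.03 and 1.18). Among them Mybl2, the B-Myb subunit of the MMB complex, had ratios of 2.11 ± 0.19 and 2.22 ± 0.37. Foxm1 was counted at 0 UMIs in the cycling cells of all 4 libraries. Whether its transcripts can be counted in these libraries was not tested, so this does not show their absence. Immediate early and dissociation stress genes were lower in 4 of 4 libraries for 13 of 22 genes in T cells (median -1.25), and for 5 of 23 in other cells, with 1 higher (-0.06). Fos, a transcription factor of that list, stood at 424 and 2715 CPM in cycling T cells after acupuncture and 889 and 455 in dysentery, against 3255 and 2899, and 3004 and 1820, in non-cycling T cells, so acupuncture library 2 was near its non-cycling level.

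In class other some genes of the whole class were nearly absent from the dividing cells. S100a9, a calcium-binding protein of neutrophils, was at 31.5 and 1795 CPM in cycling cells after acupuncture and 85.6 and 8.66 in dysentery, against 14836 and 5115, and 10963 and 3118, in non-cycling cells (-6.06 ± 3.11). Acupuncture library 2 stood apart, and the neutrophil list there summed to 2717 CPM, against 59.6 CPM in acupuncture library 1 and 121 and 12.98 in dysentery. Jchain, the joining chain of plasma cell antibodies, was at 1.66 and 1.49 CPM after acupuncture and 3.57 and 0 in dysentery, against 492 and 155, and 553 and 266, in non-cycling cells. By its rule the class takes in neutrophils and plasma cells, which no longer divide.

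Over all cycling cells, the UMI shares of the G2/M and S lists were close in the 2 groups. The cells were chosen on 2 genes that peak in G2 and mitosis, so these shares do not measure the phases of all dividing cells. Genes of the G2/M list other than the chosen markers took 0.715% and 0.716% of UMIs in cycling cells after acupuncture and 0.695% and 0.691% in dysentery (difference 0.0226 percentage points, exact two-sided permutation p = 0.333, the smallest possible). The S list took 0.340% and 0.377% against 0.385% and 0.401%. By class the order was not shared. In T cells the G2/M genes took 0.792% and 1.08% after acupuncture and 0.714% and 0.662% in dysentery, and in other cells 0.716% and 0.540% against 0.808% and 0.816%, so acupuncture was higher in T cells and lower in other cells, with no overlap in either. Whether the 2 classes differ in this was not tested.

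Between the groups, summed counts of all cycling cells were compared gene by gene with edgeR's quasi-likelihood test and Benjamini-Hochberg adjustment at 0.05. Of 7918 genes, 15 rose (0.189%) and 6 fell (0.0758%) after acupuncture. Among those that rose were 2 of the 8 tested genes of the macrophage list, Csf1r and Mrc1. Ccl2, the chemokine that draws monocytes, stood at 1392 and 1647 CPM after acupuncture and 310.0 and 231 in dysentery (log2 2.47 ± 0.21, SE; adjusted p = 0.0296). Csf1r stood at 139.6 and 133 CPM against 32.0 and 37.9 (1.95 ± 0.21; adjusted p = 0.0373), and Mrc1, the mannose receptor of tissue macrophages, at 150.3 and 171 against 33.7 and 43.1 (2.06 ± 0.23; adjusted p = 0.0373). Jun, an immediate early factor, stood at 2689 and 2969 CPM against 936 and 841 (1.66 ± 0.15; adjusted p = 0.0296), and Pi16, a marker of adventitial fibroblasts, at 209 and 269 against 56.4 and 66.6 (1.95 ± 0.23; adjusted p = 0.0373). In each of these genes both acupuncture libraries were above both dysentery libraries, which was so for 2097 of the 7918 genes, called or not (26.5%). Non-cycling cells differed likewise in Ccl2, at 1938 and 2077 CPM after acupuncture and 233 and 454 in dysentery, while for Pi16 they overlapped, at 1706 and 1514 against 908 and 1915.

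Of the 6 genes that fell, Prf1, Ccl5, Gzmm and Gzma are known from cytotoxic lymphocytes and Gbp6, which stands on more than 1 row of the gene table, is an interferon-induced GTPase; of the NK list 2 of 5 tested members fell. Prf1, the pore-forming perforin, stood at 25.9 and 23.2 CPM after acupuncture and 168 and 131 in dysentery (log2 -2.62 ± 0.24, SE; edgeR quasi-likelihood adjusted p = 0.0296). Ccl5, a chemokine of cytotoxic cells, fell by 2.17 on the log2 scale and the granzymes Gzmm and Gzma by 2.16 and 1.92. Marker lists moved with these genes: the NK list summed to 1155 and 540 CPM after acupuncture and 3252 and 2546 in dysentery, the T cell list to 1021 and 420 against 1706 and 1540, the macrophage list to 1437 and 1443 against 1042 and 681, the monocyte list to 698 and 708 against 325 and 451, and the stromal list to 3335 and 8225 against 1795 and 967. The neutrophil list summed to 49.2 and 1704 CPM against 101 and 5.22. The part of these lists in the calls was not tested. In these summed cells, fewer cells of a type and less RNA per cell cannot be told apart. With high Scrublet scores removed 0 genes passed, with 487 at an unadjusted p under 0.05 (1360 in all cycling cells). Without acupuncture library 2, 4 genes passed, and without acupuncture library 1 or dysentery library 1 or 2, 338, 300 and 383.

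Genes of the S and G2/M lists were not among the calls in all cycling cells. Of 39 S genes and 44 G2/M genes tested in all cycling cells, 0 passed in either direction by edgeR's quasi-likelihood test, with 3 and 4 at an unadjusted p under 0.05, and their median log2 differences were -0.13 and 0.04, against 0.00 over all genes. DESeq2 also called 0 of both lists. Cdk1 stood at 224 and 274 CPM after acupuncture and 241 and 236 in dysentery. Cdkn1a stood at 91.3 and 149.6 CPM against 48.9 and 36.6, with both acupuncture libraries higher (1.46 ± 0.32, SE; edgeR quasi-likelihood adjusted p = 0.110). The matrix list held 15 tested genes with 0 calls by edgeR, 8 at an unadjusted p under 0.05 and 2 by DESeq2 (median 1.56), the M2 macrophage list 12 with 1 higher (1.90), the inflammatory list 12 with 1 higher (1.52) and the immediate early list 22 with 2 higher (1.06). Ptgs2, the prostaglandin synthase that the study names and so chose on these samples, had 31 and 65 UMIs in the cycling cells after acupuncture and 3 and 0 in dysentery, and did not pass (edgeR quasi-likelihood adjusted p = 0.0863). Il10, an anti-inflammatory cytokine, had 11 and 48 UMIs against 0 and 2 (edgeR quasi-likelihood adjusted p = 0.153).

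Within cycling T cells, 3 of 4700 genes passed (0.0638%): 2 rose (0.0426%) and 1 fell (0.0213%). This comparison and the next rest on 10 to 33 cells per library. Ifi27, an interferon-induced protein, stood at 8.89 and 5.80 CPM after acupuncture and 130.1 and 164 in dysentery (3 and 1 UMIs against 86 and 82), a log2 difference of -4.23 ± 0.46 (SE; edgeR quasi-likelihood adjusted p = 0.0241). The non-cycling T cells were on the same side, at 26.3 and 50.6 CPM against 389 and 309. Gadd45b, a stress-response gene that acts on growth arrest and apoptosis, stood at 317 and 359.7 CPM after acupuncture and 74.1 and 61.9 in dysentery (2.26 ± 0.26; edgeR quasi-likelihood adjusted p = 0.0241), and in non-cycling T cells it stood at 275 and 375 against 248 and 213. Both passed with high Scrublet scores removed, at adjusted p of 0.0202 for Ifi27 and 0.0170 for Gadd45b. Of 34 S genes and 43 G2/M genes 0 passed by edgeR's quasi-likelihood test, with 2 and 7 at an unadjusted p under 0.05, and 0 by DESeq2.

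**Figure D4:**
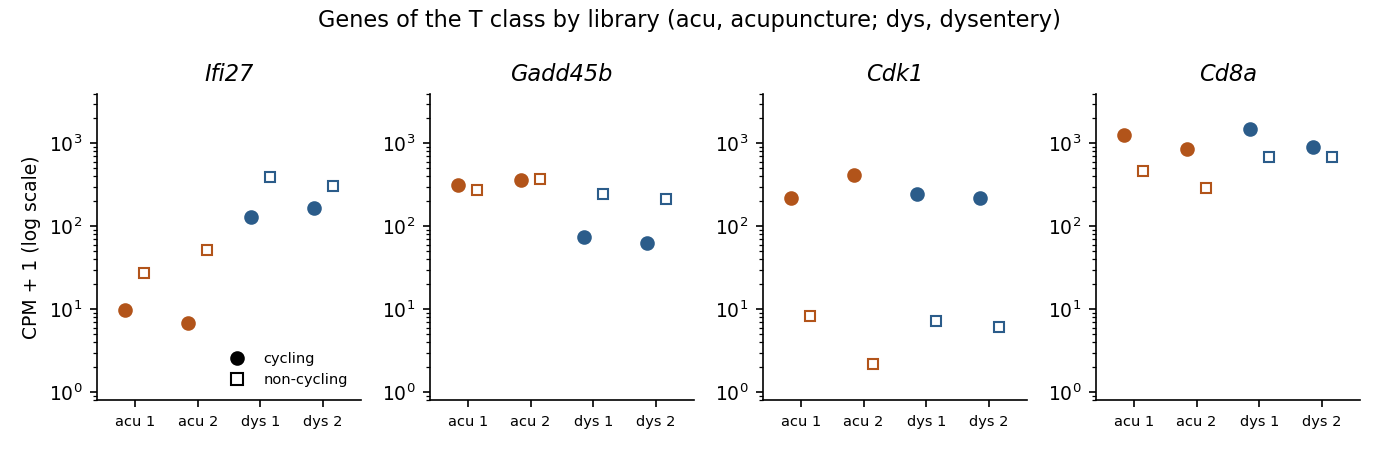
CPM plus 1 (log axis) of 4 genes in cycling (filled circles) and non-cycling (open squares) T cells of each library (x axis; acu, acupuncture; dys, dysentery). Ifi27 is low in both acupuncture libraries in either state, Gadd45b in cycling cells is at 317 and 359.7 CPM after acupuncture and 74.1 and 61.9 in dysentery, and Cdk1 and Cd8a are higher in cycling cells in 4 of 4 libraries.

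Within cycling cells of class other, 52 of 4983 genes passed (1.04%): 12 rose (0.241%) and 40 fell (0.803%). The chemokines Cxcl2 and Cxcl1 had the 2 largest log2 differences among those that rose. Cxcl2, a chemokine that draws neutrophils, stood at 972 and 2046 CPM after acupuncture and 32.1 and 86.6 in dysentery (log2 4.71 ± 0.52, SE; edgeR quasi-likelihood adjusted p = 0.00598; 0.0158 with high Scrublet scores removed). In the cells with phagocyte genes only it stood at 1107 and 2254 CPM against 67.8 and 119, and in non-cycling other cells at 1920.3 and 1569 against 690.0 and 235. Its relative Cxcl1 stood at 195 and 456 CPM against 0 and 30.3 (4.54 ± 0.82; adjusted p = 0.0449 by the same test; 0.205 with high Scrublet scores removed and 0.948 by DESeq2). Icam1, an adhesion molecule, stood at 184 and 235 CPM against 32.1 and 56.3 (2.27 ± 0.36; adjusted p = 0.0297), Nfkbiz, a regulator of NF-kappaB targets, at 226.8 and 324 against 35.7 and 77.9 (2.31 ± 0.40; adjusted p = 0.0397), and Sod2, the mitochondrial superoxide dismutase, at 301 and 367 against 118 and 113 (1.55 ± 0.26; adjusted p = 0.0338). With high Scrublet scores removed these did not pass edgeR's quasi-likelihood test, at adjusted p of 0.169 for Icam1, 0.169 for Nfkbiz and 0.205 for Sod2. Of the inflammatory list, 2 of 10 tested genes rose and 1, Ccl3, fell, at 424 and 373 CPM after acupuncture and 1359 and 896 in dysentery. Within the parts of the class Ccl3 did not show this fall. In cells with phagocyte genes only the groups were close, at 245 and 237 CPM against 229 and 226 (128 and 145 UMIs against 27 and 38). In cells with NK genes only it stood at 3298 and 5738 CPM against 2230.5 and 2701, resting on 2 and 1 cells after acupuncture.

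The genes that fell included genes of cytotoxic cells. The largest falls on the log2 scale were of Ly49i4, Gimap4, Gimap7 and Txk, of which Gimap4 and Txk are named here after their values were seen. Gzma, a granzyme, stood at 72.9 and 87.7 CPM after acupuncture and 1298 and 1666 in dysentery (log2 -4.19 ± 0.25, SE; edgeR quasi-likelihood adjusted p = 0.000524). Nkg7 stood at 167 and 65.4 CPM against 1219.9 and 1104 (-3.32 ± 0.38; adjusted p = 0.00775). The cells with NK genes only, in which a comparison would rest on 2 and 1 cells after acupuncture and 12 and 6 in dysentery, were selected on Gzma, Nkg7 and Prf1. Of genes that did not select them, Gzmk, another granzyme, stood there at 1045 and 1530.2 CPM after acupuncture and 1561 and 2366 in dysentery. In the same cells Gzmm overlapped, at 1045 and 6025 CPM against 2946 and 4492. Ccl5 overlapped there too, at 13160.5 and 24005 CPM against 16390 and 28835. Of 38 named genes that fell in class other, 13 were lower in these cells, and the rest overlapped or were higher. Among the 38 were Gzma, Nkg7, Prf1, Klrb1a and Klrd1, which selected the cells. How many of all genes were lower in these few cells was not counted, so the 13 cannot be read as a result. The values that follow are again of the whole class. Prf1 stood at 36.4 and 19.3 CPM against 428 and 359 (-3.81 ± 0.34; adjusted p = 0.00261) and Ccl5 at 831 and 453 against 7797 and 7813 (-3.60 ± 0.27; adjusted p = 0.000945). Ly49i4 is an NK receptor of a multigene family whose reads may be split between copies. It had 0 and 0 UMIs against 39 and 23 (edgeR quasi-likelihood adjusted p = 0.00372). With a floor of 3 UMIs over the acupuncture libraries it was at least 51.6-fold lower, a bound that takes UMIs as independent. Cells with NK genes only, 2 and 1 after acupuncture, held 32 and 23 of the dysentery UMIs. In non-cycling other cells Ly49i4 stood at 0.681 and 2.29 CPM against 10.1 and 7.46. The NK list fell for 5 of 5 tested members and summed to 364 and 247 CPM after acupuncture, against 3642 and 3735 in dysentery, and the T cell list to 54.6 and 52.0 against 371 and 177. The part of the number of NK-gene cells in these differences was not tested further.

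**Figure D5:**
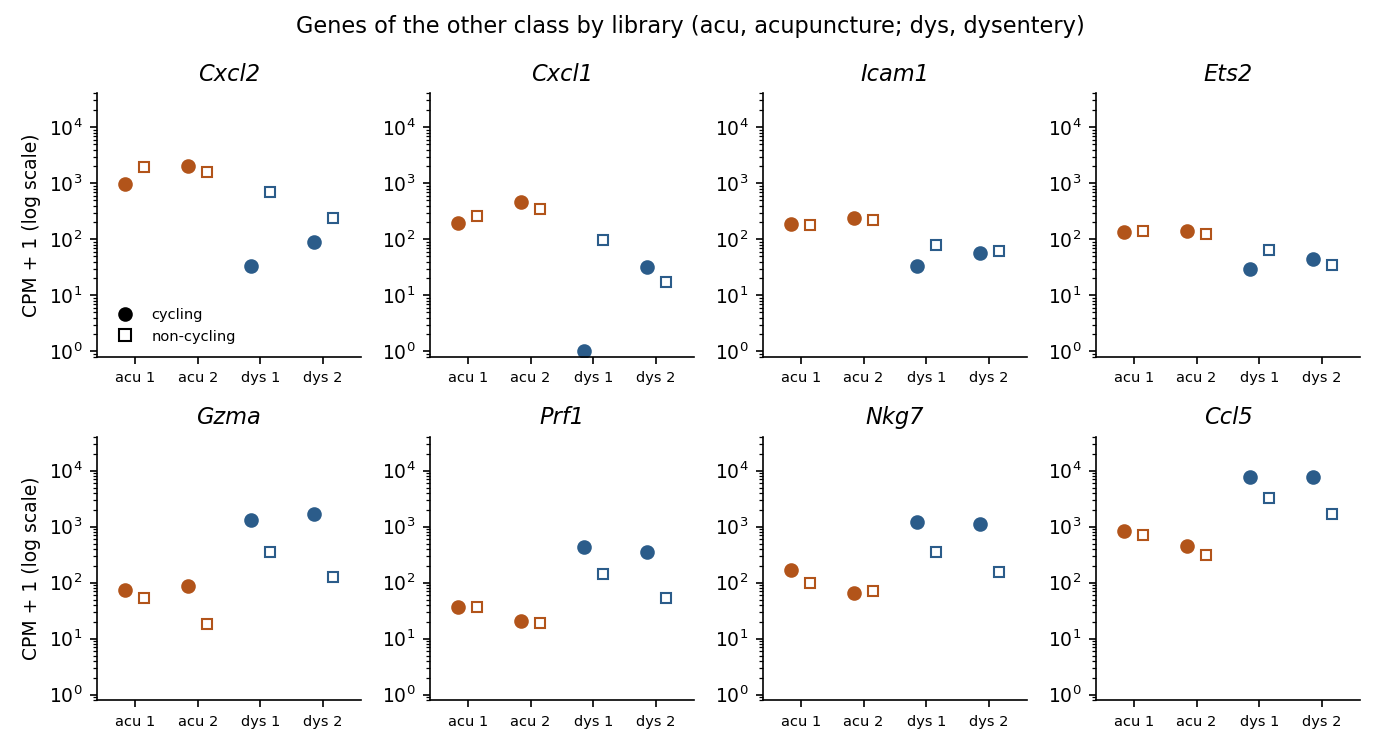
CPM plus 1 (log axis) of 8 genes in cycling (filled circles) and non-cycling (open squares) cells of class other in each library (x axis; acu, acupuncture; dys, dysentery). The upper 4 genes are higher after acupuncture in cycling cells (Cxcl2 at 972 and 2046 CPM against 32.1 and 86.6) and the lower 4 are lower (Gzma at 72.9 and 87.7 CPM against 1298 and 1666).

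The number of calls in class other changed when high-scoring barcodes or single libraries were left out. With high Scrublet scores removed 12 genes passed, 11 of them among the 52. That left 12 and 14 cycling other cells after acupuncture and 13 and 15 in dysentery. The part of the smaller cell number in the lost calls was not tested. Without dysentery library 1, 7 genes passed, and without acupuncture library 1 or 2, 206 and 163. Of 35 S genes and 44 G2/M genes tested in class other, 0 passed by edgeR's quasi-likelihood test, with 3 and 8 at an unadjusted p under 0.05 (median log2 0.36 and -0.46), and 0 by DESeq2. The spindle list had 0 calls among 27 genes in T cells, in other cells and in all cycling cells by either tool, with 6, 4 and 4 genes at an unadjusted p under 0.05.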

How the data were processed

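Per the file headers and the submitters' processing notes, the authors ran Cell Ranger 6.0.1, and STAR is named too. Of builds, mRatBN7.2 and also GRCh38.p13 are named, with no role given. The values deposited by the authors are unnormalized UMI counts, 1 per gene in each cell. The barcode and feature lists deposited by the authors hold other content, the names of cells and genes. Libraries were grouped by title. The members, classes and gene lists were chosen with earlier results of these data known, and the genes that split class other were chosen after their values were seen.

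Counts were summed per library and class over 30560 gene rows, so the library is the replicate. Sums were tested with edgeR 4.0.16 (quasi-likelihood, TMM, filterByExpr at a minimum count of 10) in R 4.3.3, with Benjamini-Hochberg adjustment over all genes of a comparison at 0.05; DESeq2 1.42.0 was an alternative. The self-test ran on simulated counts. No class held 30 cycling cells in every library, so the planned tests within classes were run for T and other cells at a limit of 10 cells, added after seeing the data, and cycling against non-cycling cells is a description. Shares were compared with exact permutation tests in scipy 1.17.1, also on cells thinned to 2000 UMIs. Doublets stayed in; Scrublet, in scanpy 1.11.5, scored them, taking the highest 0.8% per 1000 cells, and removal was an alternative. Named genes were the 10 largest calls per direction with non-overlapping libraries, called list members and the genes of fixed lists; the text gives those with a known role. Of the fixed genes, E2f1 had no row by symbol. Same-numbered libraries did not deviate together across genes (correlations -0.0739, 0.0218 and -0.0409 in all, T and other cycling cells). The labels do not say whether numbers pair libraries. These values cannot decide it, as each rests on a single difference per group. Promoters came from RefSeq, build GRCr8.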

Additional observations from a re-analysis of the deposited data

Results flagged for a closer look

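The difference between the groups in the share of cycling cells pointed in opposite directions in T cells and in class other. The difference, acupuncture minus dysentery, was -2.56 percentage points in T cells and 0.850 in class other, so the 2 differences lay 3.41 percentage points apart. Both acupuncture libraries lay on 1 side of both dysentery libraries in this contrast of classes. The exact two-sided permutation test of it gave p = 0.333, the smallest that 2 against 2 libraries allow, so it does not pass 0.05. With high Scrublet scores removed the differences were -2.59 percentage points in T cells and 0.107 in class other, where the groups then overlapped.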

How the results depend on the processing

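Of the shares and makeup, those of T, other and stromal cells kept their direction under every alternative run. Leaving out each library in turn, the difference in the share of cycling cells ran from -0.265 to 0.187 percentage points, that of thinned cells from -0.141 to 0.0429, that within macrophages from -0.486 to 0.0354 and that of macrophages among cycling cells from -1.25 to 3.52; each turned. Counting thinned cells with 3 or more other G2/M genes, a much wider measure, gave a difference of 0.586. Such cells were 10.6% and 11.6% of thinned cells after acupuncture and 12.3% and 8.69% in dysentery, and the groups overlapped. Macrophages within their class turned to 0.0611 on thinned cells. Macrophages among cycling cells turned to -3.66 and the S list share to 0.0166 without high Scrublet scores. Called genes numbered 21 in all cycling cells, 3 in T cells and 52 in other cells. In all cycling cells they numbered 0 without high Scrublet scores, 167 by DESeq2 and 471 with no filter; in T cells 8 by DESeq2 and 107 with no filter; in other cells 12 without high scores, 19 with at least 2 UMIs of each marker and 299 with no filter. Without 1 library they numbered 4 to 383, 23 to 168 and 7 to 206; each lone library is assumed to vary like the others. With the replicate number as a block they numbered 122 in all cycling cells, 9 in T cells and 30 in other cells. Whether the numbers pair libraries is not stated, so this says nothing on strength. The cause of these moves was not tested. Of 735 values for 62 gene results, 584 kept direction and call, 97 lost and 40 gained the call, and 14 turned. Without 1 library Top2a ran from -0.0968 to 0.0128, Pcna from -0.17 to 0.16, Mcm5 from -0.39 to 0.24, Cdk1 from -0.13 to 0.17, Ccnb1 from -0.13 to 0.59, Csf1 from -0.34 to 0.23 and Pdgfra from -0.36 to 3.79. Top2a turned to 0.11, Mcm5 to 0.0572 and Csf1 to 0.26 without high scores, Top2a to 0.0497 and Pcna to -0.00629 with at least 2 UMIs of each marker, and Pcna to -0.0028 with no filter. Tests within macrophages and stromal cells, and interactions with the class, were not run because no class held 30 cycling cells per library. With 40 to 55 cycling cells per library, small differences were not detectable.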
